A study of Mus musculus with 37 samples.

Results

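The Tdpoz genes encode small mouse proteins that join a TRAF (MATH) domain to a BTB (POZ) domain. The genes were taken from the RNA-seq table by name, as every symbol that starts with Tdpoz and goes on with a digit. The rule found 5 genes of 23235, Tdpoz1, Tdpoz2, Tdpoz3, Tdpoz4 and Tdpoz5. The series holds 37 samples, 32 of DNase-seq and 5 of RNA-seq, from mouse germ cells, pronuclei, preimplantation embryos and embryonic stem cells. The RNA came from pools of whole embryos made by in vitro fertilization. The Nfya-KD group had 2 pools of 2-cell embryos given siRNA against Nfya, of 10 and 13 embryos. The siControl group had 2 pools of 2-cell embryos given control siRNA, of 10 and 16 embryos. All 4 pools were taken 30 h after fertilization, against 12 h for the lone pool of 20 1-cell embryos, whose label names no siRNA. The strain label of all 5 pools is BDF1 oocyte x BDF1 sperm, where BDF1 is a hybrid of C57BL/6 and DBA/2, while the culture protocol names JF1 sperm for stages after the 1-cell. The labels number the Nfya siRNA as the libraries, siNfya-1 and siNfya-2, so siRNA and library cannot be told apart. Nothing in the labels says that pools came from separate mothers, so p-values measure the spread between these pools, which may be technical.

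In the best known relative of the Tdpoz proteins, SPOP, the MATH domain holds a substrate protein and the BTB domain binds cullin-3 (CUL3), the scaffold of a ubiquitin ligase, so that the adaptor brings the substrate to the enzyme. The Tdpoz genes are copies of one another in a cluster of the mouse genome, and their transcripts are known from the 2-cell embryo, the stage of the major activation of the mouse embryonic genome. The sources used here name no substrate of a Tdpoz protein. NF-Y, the complex whose DNA-binding subunit is encoded by Nfya, binds the sequence CCAAT. FPKM, the unit of the table, is a fragment count scaled by transcript length and library size.

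RefSeq (build GRCm38.p6) places all 5 genes on chromosome 3, in a run of 46 annotated genes and pseudogenes from Tdpoz8 to Spopfm1. Of the 46 entries, 11 have Tdpoz or Spop names and 26 are pseudogenes, of which 0 stand in the RNA table. The RNA table lists 4 further relatives of this run under older names, Gm4858 (Tdpoz8), Gm9125 (Tdpoz9), Gm10697 (Tdpoz7) and Gm10696 (Spopfm2). Start windows in RefSeq, from 250 bases before the annotated start to 50 bases of the gene, were at hand for Tdpoz1, Tdpoz4 and Tdpoz5 and for these 4 relatives. The windows below are shown because they fall into 2 sequence types that cut across the names, and because they show how alike the copies are. They read 5' to 3' on the strand of the gene. Capitals mark CCAAT, its reverse complement ATTGG, the TATA box core TATAA and the motif TTTTCAG. Tdpoz1 lies on the minus strand at chr3:93676234-93676533, Tdpoz4 on the plus strand at chr3:93796148-93796447 and Tdpoz5 on the minus strand at chr3:93961265-93961564. Tdpoz8 has 2 annotated starts on the plus strand, with windows at chr3:93068573-93068872 and chr3:93073271-93073570.
Tdpoz1: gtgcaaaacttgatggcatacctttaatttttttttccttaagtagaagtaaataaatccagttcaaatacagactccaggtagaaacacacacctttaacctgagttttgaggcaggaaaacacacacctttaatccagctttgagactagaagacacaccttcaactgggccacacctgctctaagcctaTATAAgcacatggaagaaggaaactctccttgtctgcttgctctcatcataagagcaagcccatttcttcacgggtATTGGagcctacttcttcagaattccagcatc
Tdpoz8 window 1: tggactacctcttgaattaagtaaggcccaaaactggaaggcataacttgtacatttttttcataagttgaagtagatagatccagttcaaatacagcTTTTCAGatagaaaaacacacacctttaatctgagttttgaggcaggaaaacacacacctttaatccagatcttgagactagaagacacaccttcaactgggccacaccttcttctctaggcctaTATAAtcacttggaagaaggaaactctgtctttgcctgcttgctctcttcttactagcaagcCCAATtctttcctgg
Tdpoz4: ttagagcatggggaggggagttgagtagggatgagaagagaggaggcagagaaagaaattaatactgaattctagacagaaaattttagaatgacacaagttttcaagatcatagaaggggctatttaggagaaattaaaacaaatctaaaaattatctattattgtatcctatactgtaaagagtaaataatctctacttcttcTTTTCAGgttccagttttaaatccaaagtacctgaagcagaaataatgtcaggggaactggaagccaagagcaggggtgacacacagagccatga
Tdpoz8 window 2: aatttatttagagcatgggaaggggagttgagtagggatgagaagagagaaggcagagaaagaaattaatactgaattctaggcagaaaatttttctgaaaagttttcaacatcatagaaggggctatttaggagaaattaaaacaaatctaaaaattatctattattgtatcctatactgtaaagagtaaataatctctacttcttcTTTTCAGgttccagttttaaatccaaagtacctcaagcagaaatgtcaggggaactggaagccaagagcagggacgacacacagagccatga
Tdpoz5: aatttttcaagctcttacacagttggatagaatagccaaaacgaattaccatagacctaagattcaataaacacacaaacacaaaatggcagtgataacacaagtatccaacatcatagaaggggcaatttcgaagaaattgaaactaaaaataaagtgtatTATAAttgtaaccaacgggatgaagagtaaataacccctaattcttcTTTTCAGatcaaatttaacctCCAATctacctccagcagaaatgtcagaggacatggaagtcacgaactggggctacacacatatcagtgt

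The windows of Tdpoz1, Tdpoz9, Spopfm2 and the first start of Tdpoz8 made up the first type. They were 80.8% to 100% identical to one another over 263 to 292 aligned bases, and each held TATATAA, which includes TATAA, with its first base at position -60 in Tdpoz1, -33 in Tdpoz9, -31 in Spopfm2 and -29 in Tdpoz8. Position -1 is the base before the annotated start and 1 the first base of the gene. TATATAA was in 2.2% of the 32851 RefSeq windows of this length and TATAA in 17.5%. The Tdpoz1 and Tdpoz9 windows aligned over 272 bases with 0 mismatches but not without a gap, and their longest unbroken shared run was 236 bases.

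The windows of Tdpoz4, Tdpoz5, Tdpoz7 and the second start of Tdpoz8 made up the other type. They were 75.1% to 99.7% identical over 275 to 300 bases, and each held TTTTCAG with its first base at position -45 in Tdpoz4, -41 in Tdpoz5 and Tdpoz7 and -42 in Tdpoz8. TTTTCAG was in 3.38% of all windows, and it also stood once in the first Tdpoz8 window, at -152. Introns end in AG after a run of pyrimidines, and the second start of Tdpoz8 lies inside the gene that its first start opens. Whether TTTTCAG is an intron end in these windows, and whether transcription starts at these annotated positions in embryos, was not tested. Tdpoz5 and Tdpoz7 differed at 1 of 300 bases. Tdpoz4 and the second Tdpoz8 window shared 284 of 293 aligned bases. Across the types, 128 to 226 bases could be aligned at 70.8% to 75.8% identity. TATATAA and TTTTCAG were chosen after the windows had been seen.

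CCAAT was searched on both strands. It stood at position -20 in Tdpoz5 and, as ATTGG, at 19 in Tdpoz1, and it was not among the 300 letters of the Tdpoz4 window. All windows held it on either strand in 37.4% of cases. The DNase I hypersensitive sites of the series are not set beside these windows, because the site lists use the build mm9 and gene positions on mm9 were not used here.

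The 5 RNA libraries did not stand alike. Across genes, log2 values correlated at 0.976 between Nfya-KD 1 and siControl 1 and at 0.975 between Nfya-KD 2 and siControl 2, against 0.931 between both Nfya-KD and 0.926 between both siControl libraries. The summed FPKM of all genes was 260569 and 449820 in Nfya-KD libraries 1 and 2, 243441 and 457684 in siControl libraries 1 and 2, and 417931 in 1-cell embryos. Read totals were not in the table, and steps of the lowest values put the depth of the libraries at 0.747 to 1.02 times that of siControl 1. Nfya itself had 3.28 and 4.48 FPKM in Nfya-KD, against 10.3 and 15.5 FPKM in siControl and 36.8 FPKM in 1-cell embryos, and its knockdown change of -1.50 on the log2 scale (SE 0.33) had a limma adjusted p of 1.00. The partner subunit gene Nfyb had 52.9 and 127 FPKM in Nfya-KD, 13.0 and 38.8 FPKM in siControl, and 9.77 FPKM in 1-cell embryos. Nfyc had 34.5 and 49.5 FPKM in Nfya-KD, 26.6 and 42.5 FPKM in siControl, and 62.9 FPKM in 1-cell embryos. Of 11 cumulus and granulosa cell markers 1 reached 1 FPKM in at least 2 libraries (Tnfaip6), and of 7 sperm markers 2 did (Prm2 and Tnp1). A marker high in the lone 1-cell library alone could not meet this limit. Cyp19a1 had 5.91 FPKM in 1-cell embryos and 0.319 to 0.779 FPKM in the 2-cell libraries. Tnfaip6 was listed at 0 in 1-cell embryos and had 2.51 to 5.17 FPKM in the 2-cell libraries. The cumulus and granulosa sums thus rest mostly on different genes in 1-cell and 2-cell embryos. The summed level of the cumulus and granulosa list was 5.60 and 4.24 FPKM in Nfya-KD, 7.90 and 6.86 FPKM in siControl and 6.84 FPKM in 1-cell embryos. That of the sperm list was 3.53 and 10.7 FPKM in Nfya-KD, 6.03 and 8.26 FPKM in siControl and 12.9 FPKM in 1-cell embryos, and the protamine gene Prm1 was listed at 0 in all 4 2-cell libraries.

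All 5 Tdpoz genes were abundant at the 2-cell stage and at or near 0 at the 1-cell stage. Tdpoz5 had 49.5 and 214 FPKM in Nfya-KD, 46.8 and 269 FPKM in siControl, and 0.435 FPKM in 1-cell embryos. It was the highest member in each of the 5 libraries, and its level in both libraries numbered 2 stood far above that in both libraries numbered 1. Tdpoz4 had 38.5 and 76.6 FPKM in Nfya-KD, 32.3 and 103.7 FPKM in siControl, and was listed at 0 in 1-cell embryos. Tdpoz1 had 45.6 and 70.9 FPKM in Nfya-KD, 33.3 and 91.0 FPKM in siControl, and 0.0842 FPKM in 1-cell embryos. For both genes the Nfya-KD values lay inside the range of the siControl values. Tdpoz3 had 23.7 and 34.8 FPKM in Nfya-KD, 22.4 and 39.5 FPKM in siControl, and was listed at 0 in 1-cell embryos. Tdpoz2 had 15.4 and 42.3 FPKM in Nfya-KD, 15.8 and 52.5 FPKM in siControl, and 0.0667 FPKM in 1-cell embryos. Tdpoz3 varied least between libraries of a group, and for it too the Nfya-KD values lay inside the siControl range.

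**Figure D1:**
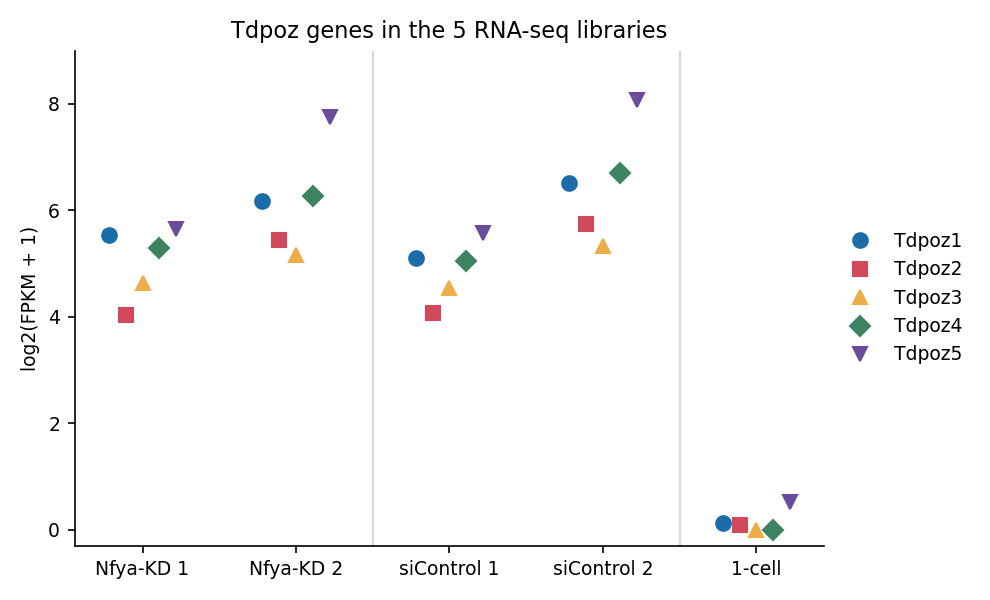
Level of each Tdpoz gene, as log2(FPKM + 1), in the 5 RNA-seq libraries (1 point per gene and library). The 1-cell points lie between 0 and 0.435 FPKM, while every 2-cell point lies at 15.4 FPKM or above, and Tdpoz5 is highest throughout.

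The order of the members depended on the library. In both libraries numbered 1 the order of FPKM was Tdpoz5, Tdpoz1, Tdpoz4, Tdpoz3, Tdpoz2, and in both numbered 2 it was Tdpoz5, Tdpoz4, Tdpoz1, Tdpoz2, Tdpoz3. Tdpoz1 and Tdpoz4 thus changed places, as did Tdpoz2 and Tdpoz3, and the difference within either pair was not tested. The highest member was 3.22 and 6.16 times the lowest in Nfya-KD libraries 1 and 2, and 2.96 and 6.82 times in siControl libraries 1 and 2. Tdpoz5 stood at or above 91.7% and 97.6% of the tested genes in siControl, and Tdpoz2 at or above 74.7% and 87.7%. In 1-cell embryos the same shares lay between 4.25% and 14.1% for the 5 genes. Together the members held 0.0663% and 0.0976% of the summed FPKM in Nfya-KD, 0.0618% and 0.121% in siControl, and 0.00014% in 1-cell embryos. With the 4 relatives of the same run the sums were 434 and 1007 FPKM in Nfya-KD, 379 and 1241 FPKM in siControl, and 1.52 FPKM in 1-cell embryos. In pools of whole embryos, fewer expressing cells and less RNA per cell cannot be told apart.

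Between 2-cell siControl and 1-cell embryos all 5 genes rose. The change in log2(FPKM + 1) was 6.31 for Tdpoz5 (SE 1.33), with an adjusted p of 0.0268 (limma, Benjamini-Hochberg over 10841 genes). It was 5.88 for Tdpoz4 (SE 0.83, adjusted p = 0.0134) and 5.70 for Tdpoz1 (SE 0.71, adjusted p = 0.0123) in the same limma fit. Tdpoz3 changed by 4.94 (SE 0.50, adjusted p = 0.0117) and Tdpoz2 by 4.81 (SE 0.91, adjusted p = 0.0217). Each gene was higher in 2 of 2 siControl libraries, by 3.98 to 5.06 in siControl 1 and by 5.34 to 7.56 in siControl 2. The added 1 FPKM makes these differences smaller than the ratios of the low 1-cell values would give. By size of change the members took places 42 (Tdpoz5), 60 (Tdpoz4), 67 (Tdpoz1), 129 (Tdpoz3) and 140 (Tdpoz2) of 10841 genes. This order depends on the added 1 FPKM. With 0.1 FPKM added, the changes were 9.18 for Tdpoz4 (place 22), 8.23 for Tdpoz1 (place 56), 8.22 for Tdpoz3 (place 57), 7.72 for Tdpoz5 (place 83) and 7.44 for Tdpoz2 (place 94).

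All 5 members were called higher, while 12.2% of the genes tested were called higher and 19.7% lower. The members passed the filter of at least 1 FPKM in at least 2 libraries through their 2-cell values, and 0 of 5 reached 1 FPKM in 1-cell embryos, so a difference was built into their passing. With no filter on low values 3 of the 5 were called (Tdpoz1, Tdpoz3 and Tdpoz4), against 2.81% of 19841 genes, and Tdpoz2 and Tdpoz5 had adjusted p of 0.0662 and 0.0787. Those were the highest adjusted p of both genes over all alternatives, and the lowest, 1.1e-12 for Tdpoz2 and 2.3e-13 for Tdpoz5, came without siControl 1, where single libraries are compared and the spread comes from the Nfya-KD pair alone. The 1-cell group is 1 library, assumed to vary like the 2-cell groups, and its stage, library and lack of a named siRNA cannot be told apart.

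The scaling of the libraries moved the genome-wide values and not the members' direction. The median log2 change of all genes was -0.35 as deposited and -0.005 with libraries set to the same median, and the calls were 1322 higher and 2138 lower as deposited, against 1799 higher and 1389 lower with that scaling and 1261 higher and 1283 lower with quantile normalization. Relative to the median of all genes as deposited, the members rose by 5.16 (Tdpoz2) to 6.65 (Tdpoz5), with a median of 6.04.

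**Figure D2:**
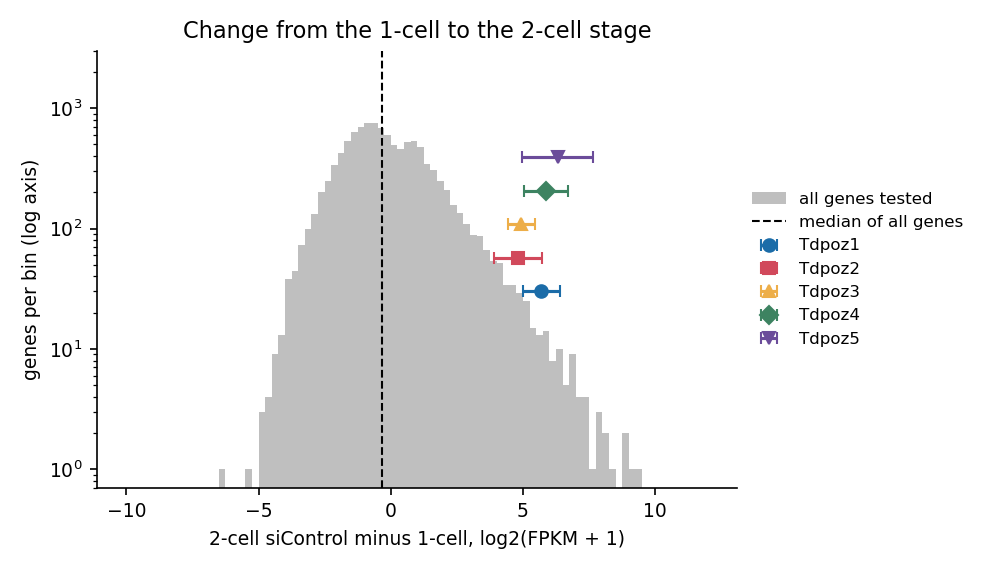
Distribution of the log2(FPKM + 1) change of all 10841 genes tested between 2-cell siControl and 1-cell embryos (grey, log vertical axis), with the Tdpoz genes as symbols and their SE as bars (their height has no meaning). The members lie between 4.81 and 6.31, in the right tail, and the dashed line marks the median of all genes at -0.35.

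The 4 relatives of the same run were also at or near 0 in 1-cell embryos and abundant at the 2-cell stage. Gm10696 (Spopfm2), which is Spop-like by its RefSeq name, had 123 and 193 FPKM in Nfya-KD, 108 and 243 FPKM in siControl, and 0.403 FPKM in 1-cell embryos. It stood above Tdpoz5 in both libraries numbered 1 and below it in both numbered 2, and its stage change was 6.86 (SE 0.68, limma adjusted p = 0.0117). Gm9125 (Tdpoz9) rose by 6.00, Gm4858 (Tdpoz8) by 5.52 and Gm10697 (Tdpoz7) by 6.31, with limma adjusted p of 0.0117, 0.0165 and 0.0259. Like the members, all 4 passed the filter through their 2-cell values, so a difference was built into their passing. With no filter Gm9125 and Gm10696 were called (limma adjusted p = 0.0399 each), while Gm4858 and Gm10697 had adjusted p of 0.0534 and 0.0766. Spop itself, the broadly expressed adaptor gene, had 26.8 and 19.2 FPKM in Nfya-KD, 28.0 and 23.3 FPKM in siControl, and 45.8 FPKM in 1-cell embryos, a stage change of -0.82 with a limma adjusted p of 0.199. Spopl, its close paralog, stayed at or below 0.979 FPKM in all 2-cell libraries and had 1.89 FPKM in 1-cell embryos.

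Other genes of the RNA table within the run did not share the level of the Tdpoz genes. All of them lie between Tdpoz8 and Tdpoz2 in RefSeq order, so none lies among the members, where the other entries are pseudogenes that the RNA table does not list. The measured neighbours are genes of the epidermal differentiation complex and its flank, picked for their place after the member values were seen. Of 8 such genes in the RNA table, 5 stayed under 1 FPKM in all 5 libraries, among them Crnn, Flg2 and Hrnr, which encode proteins of the cornified layer of skin. Tchh (trichohyalin, a hair follicle protein) had 5.59 and 8.53 FPKM in Nfya-KD, 4.29 and 10.8 FPKM in siControl, and 0.219 FPKM in 1-cell embryos. S100a11, a calcium-binding protein gene, had 13.2 and 6.01 FPKM in Nfya-KD, 13.0 and 11.0 FPKM in siControl, and 3.03 FPKM in 1-cell embryos. S100a10, of the same family, had 3.85 and 6.92 FPKM in Nfya-KD, 5.84 and 1.43 FPKM in siControl, and 0.269 FPKM in 1-cell embryos. From 1-cell to 2-cell siControl embryos Tchh rose by 2.69 on the log2 scale (limma adjusted p = 0.0275). S100a11 and S100a10 changed by 1.68 and 1.69 without a call (limma adjusted p = 0.0615 and 0.124). Tchh and S100a10 passed the filter through their 2-cell values, so a difference was built into their passing.

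**Figure D3:**
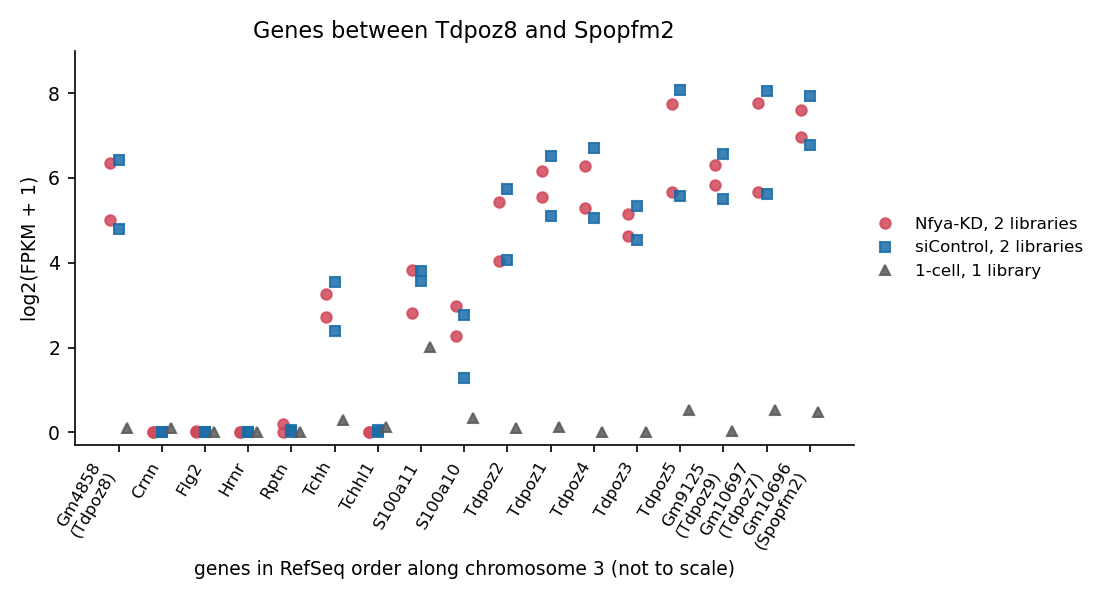
Level as log2(FPKM + 1) of the 17 genes of the RNA table in the run, in RefSeq order (spacing is not to scale), with 1 point per library. The 9 Tdpoz and Spop genes lie at 15.4 FPKM or above in all 2-cell libraries and at 0.435 FPKM or below in the 1-cell library, while 5 of the 8 other genes lie under 1 FPKM throughout.

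Levels were compared within the 3 pairs of genes with the most alike start windows, and with 1 pair whose windows are not alike. Tdpoz5 over Gm10697 (Tdpoz7) was 0.988 and 0.987 in Nfya-KD, 0.971 and 1.02 in siControl, and both were listed at 0.435 FPKM in 1-cell embryos. Tdpoz1 over Gm9125 (Tdpoz9) was 0.813 and 0.915 in Nfya-KD, and 0.744 and 0.976 in siControl, and in 1-cell embryos they had 0.0842 and 0.0277 FPKM. Tdpoz4 over Gm4858 (Tdpoz8) was 1.23 and 0.952 in Nfya-KD, and 1.20 and 1.21 in siControl, and in 1-cell embryos Tdpoz4 was listed at 0 and Gm4858 at 0.0734 FPKM. Tdpoz1 over Tdpoz4, whose windows were 70.8% identical over 144 bases, was 1.19 and 0.927 in Nfya-KD, and 1.03 and 0.878 in siControl. In 1-cell embryos Tdpoz1 had 0.0842 FPKM and Tdpoz4 was listed at 0. All of these pairs were added after values were seen. Over Nfya-KD and siControl the ratios of Tdpoz1 over Tdpoz4 ran from 0.878 to 1.19, more widely than those of Tdpoz5 over Gm10697. Those of Tdpoz1 over Gm9125 ran from 0.744 to 0.976, and those of Tdpoz4 over Gm4858 from 0.952 to 1.23. Whether near-equal levels go with near-identical windows was not tested. No source used here says how reads that match several copies were shared out, so the levels of single copies are uncertain, and whether each copy is transcribed was not tested.

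Nfya knockdown gave no called change in any Tdpoz gene. Tdpoz1 averaged 58.3 ± 17.9 FPKM in Nfya-KD and 62.2 ± 40.8 FPKM in siControl (SD, n = 2 each). Tdpoz4 averaged 57.5 ± 26.9 FPKM in Nfya-KD and 68.0 ± 50.5 FPKM in siControl. Tdpoz5 averaged 132 ± 116 FPKM in Nfya-KD and 158 ± 157 FPKM in siControl. The SDs were close to the means for Tdpoz5 and well above each difference between groups for all 3. Tdpoz2 averaged 28.9 ± 19.0 FPKM in Nfya-KD and 34.1 ± 26.0 FPKM in siControl, and Tdpoz3 averaged 29.3 ± 7.82 FPKM in Nfya-KD and 30.9 ± 12.1 FPKM in siControl.

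The log2(FPKM + 1) changes were 0.04 for Tdpoz1 (95% interval -1.55 to 1.64), -0.17 for Tdpoz2 (-2.12 to 1.79), -0.05 for Tdpoz3 (-1.19 to 1.10), -0.09 for Tdpoz4 (-1.93 to 1.74) and -0.12 for Tdpoz5 (-3.0 to 2.76). Each had an adjusted p of 1.00 (limma, Benjamini-Hochberg over 10533 genes). These intervals, from the fit without a term for the library number, reach past 1 on either side of 0 for every member. In this fit 0 of 10533 genes were called lower (0%) and 0 higher (0%), and 92 genes (0.873%) were lower and 47 (0.446%) higher at an unadjusted p under 0.05, with 0 members among them. The median change of the members was -0.09, against 0.01 for all genes tested. Both Nfya-KD libraries lay on one side of both siControl libraries for 0 of 5 members, against 16.9% of the genes tested. The direction changed with the library left out. Leaving out 1 library unbalances the library numbers, and all 5 members were higher in number 2 in both groups. The signs that follow thus cannot be told apart from that gap. Without siControl 1 all 5 members were lower in Nfya-KD (by -0.44 to -1.37) and without Nfya-KD 2 they were lower as well (by -0.27 to -1.17), while without siControl 2 all 5 were higher (by 0.35 to 1.13) and without Nfya-KD 1 they were higher too (by 0.22 to 0.92).

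Within libraries of the same number the differences were smaller than across numbers. In number 1 the ratio of Nfya-KD to siControl FPKM was 1.37 for Tdpoz1, 0.975 for Tdpoz2, 1.06 for Tdpoz3, 1.19 for Tdpoz4 and 1.06 for Tdpoz5. In number 2 it was 0.779, 0.806, 0.882, 0.738 and 0.796 for the same genes. The sign thus differed between the numbers for 4 of 5 members, a pattern of 27.3% of the genes tested. All 5 members were lower in Nfya-KD within number 2, as were 53.2% of the genes tested. The summed members gave a ratio of 1.15 in number 1 and 0.790 in number 2, beside 1.07 and 0.983 for the summed FPKM of all genes. The 2 members whose start window holds CCAAT on either strand, Tdpoz1 and Tdpoz5, had knockdown changes of 0.04 and -0.12, beside -0.09 for Tdpoz4, whose window lacks it. The intervals of these changes were wide, and start windows were not at hand for Tdpoz2 and Tdpoz3. Whether CCAAT in the window goes with the knockdown change was not tested.

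**Figure D4:**
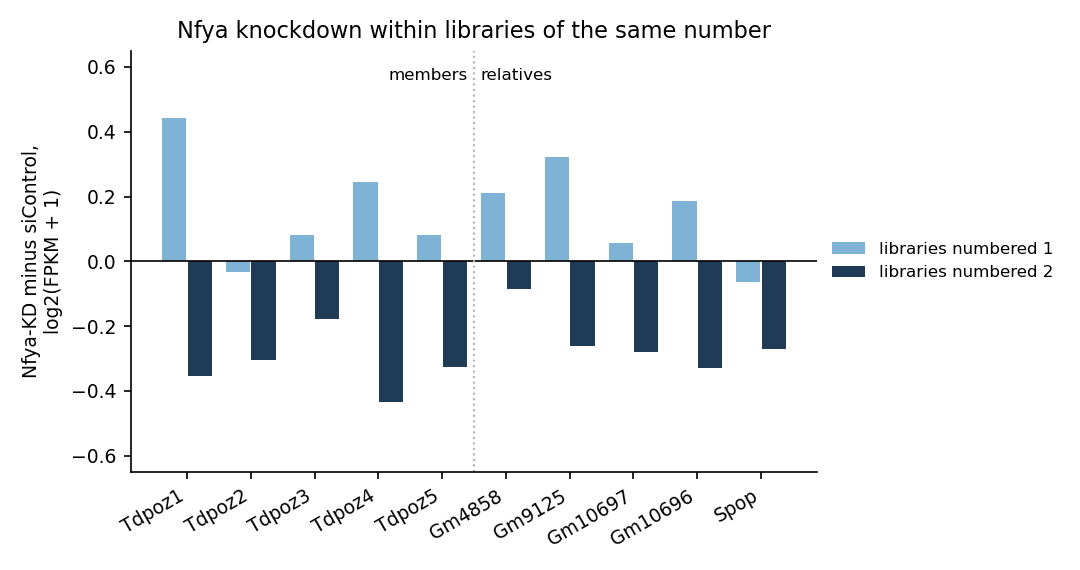
Difference in log2(FPKM + 1) of Nfya-KD minus siControl within libraries numbered 1 (light) and numbered 2 (dark), for the 5 Tdpoz genes and 5 relatives (bars start at 0, 1 library per group and number). Light bars lie above 0 for 4 of 5 members and dark bars lie below 0 for all 5.

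The difference between libraries of the same group was larger than either. Tdpoz5 in library 2 over library 1 was 4.33-fold in Nfya-KD and 5.75-fold in siControl. Tdpoz2 gave 2.75-fold in Nfya-KD and 3.33-fold in siControl, and Tdpoz4 gave 1.99-fold in Nfya-KD and 3.21-fold in siControl. Tdpoz1 gave 1.55-fold in Nfya-KD and 2.73-fold in siControl, and Tdpoz3 gave 1.47-fold in Nfya-KD and 1.76-fold in siControl. The members thus did not move by a common factor. All 5 were higher in number 2 in both groups, against 50.3% of the genes tested. For the summed FPKM of all genes, library 2 over library 1 was 1.73-fold in Nfya-KD and 1.88-fold in siControl. Tdpoz3 in both groups and Tdpoz1 in Nfya-KD lay below those values. The median log2 difference of the members was 0.97 in Nfya-KD and 1.65 in siControl, beside 0.14 and 0.20 for all genes tested in Nfya-KD and in siControl. The number of embryos was 13 and 10 in Nfya-KD libraries 2 and 1, and 16 and 10 in siControl libraries 2 and 1, and the part of pool size, siRNA number or library preparation in this difference was not tested.

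**Figure D5:**
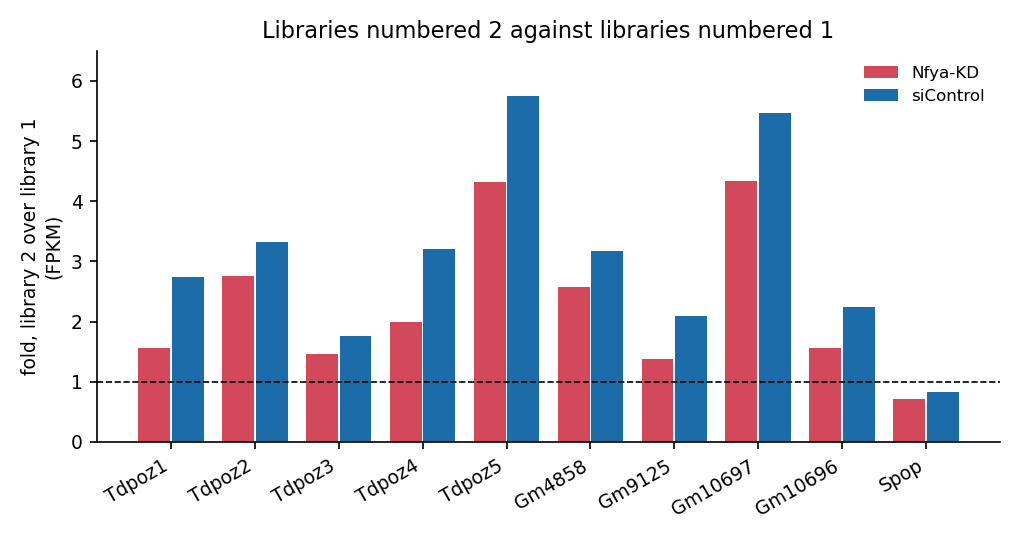
Ratio of FPKM in library 2 to library 1 of the same group for the 5 Tdpoz genes and 5 relatives (bars start at 0, dashed line at a ratio of 1). All Tdpoz genes lie above 1 in both groups, with Tdpoz5 highest among them at 4.33 in Nfya-KD and 5.75 in siControl, while Spop lies below 1.

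The genes whose pattern over the 5 libraries was most like that of each member were found by the root mean square (RMS) difference of log2(FPKM + 1) values centred on each gene's own mean, among genes that passed the filter. This measure turns mostly on the low 1-cell value and on the gap between libraries numbered 1 and 2. Nearest to Tdpoz5 was its copy Gm10697 (RMS difference 0.0236), followed at a distance by Gm4027 (0.223) and Mt2 (0.270), a metallothionein gene. Nearest to Tdpoz4 were Zfp352 (0.104), a zinc finger gene known from the 2-cell stage, Gabpa (0.113), which encodes the DNA-binding subunit of GABP, and Cdk2ap1 (0.114). Nearest to Tdpoz1 were Zfp54 (0.142), Gabpa (0.157) and Gm9125 (0.177). Nearest to Tdpoz2 were Chka (0.0489), which encodes a choline kinase, Gm13102 (0.128) and D030056L22Rik (0.132). Nearest to Tdpoz3 were Rilpl2 (0.0649), AU015228 (0.0667) and Zc3hc1 (0.0967). Among the members themselves Tdpoz1 and Tdpoz4 were most alike (0.153), and the other pairs lay between 0.381 and 0.904, with Tdpoz3 and Tdpoz5 farthest apart.

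The partners that a MATH-BTB adaptor of cullin-3 would use were measured in the same libraries. Of 25 tested genes of the cullin-3 ligase and of neddylation, the modification that activates cullins, 1 rose (4%) and 4 fell (16%) between 2-cell siControl and 1-cell embryos, against 12.2% and 19.7% of all genes tested. The gene that rose was Cul3 itself, with 95.9 and 143 FPKM in Nfya-KD, 76.0 and 170 FPKM in siControl, and 13.5 FPKM in 1-cell embryos, a log2 change of 2.98 (limma adjusted p = 0.0325, and 0.0723 with no filter on low values). The genes that fell were Nae1 (-2.73) and Uba3 (-1.90), the subunits of the NEDD8-activating enzyme, Senp8 (-3.23), a NEDD8 protease, and Cops8 (-2.62), a subunit of the signalosome that removes NEDD8. The members of highest siControl mean were Ube2d3, a ubiquitin-conjugating enzyme gene (-0.88, limma adjusted p = 0.405), and Dcun1d5, a cofactor of neddylation (1.13, limma adjusted p = 0.379). The median change of the list was -0.50, beside -0.35 for all genes tested.

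Of 32 tested genes of other BTB adaptors of cullin-3, 4 rose (12.5%, against 12.2% of all genes tested) and 9 fell (28.1%, against 19.7%) over the same stages. Klhl11 rose most, with 38.5 and 54.8 FPKM in Nfya-KD, 33.6 and 58.3 FPKM in siControl, and 1.58 FPKM in 1-cell embryos, a log2 change of 4.13 (limma adjusted p = 0.0123). Klhl7 (2.49), Ivns1abp (2.23) and Kbtbd2 (1.27) rose too. Klhl7 and Kbtbd2 were under 1 FPKM in 1-cell embryos and passed the filter through their 2-cell values, and with no filter their limma adjusted p were 0.0987 and 0.0720. Klhl13 (-2.47), Kbtbd7 (-2.46), Gm5465 (Kbtbd6 in RefSeq, -2.41), Klhl9 (-2.34), Kctd5 (-1.94), Btbd10 (-1.93), Kbtbd4 (-1.84), Rhobtb1 (-1.71) and Klhl2 (-1.54) fell. Kbtbd8 and Klhl8, those of highest siControl mean, had changes of -1.87 and -1.41 and limma adjusted p of 0.0507 and 0.0917. The median change of this list was -0.75.

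Of 6 tested genes of other MATH domain proteins 1 rose (16.7%, against 12.2% of all genes tested), Traf2, an adaptor of tumour necrosis factor receptors (2.23, limma adjusted p = 0.0138, and 0.0439 with no filter). Traf2 had 0.0842 FPKM in 1-cell embryos and passed the filter through its 2-cell values. Usp7, a deubiquitinase, and Trim37, a ubiquitin ligase, had changes of -1.50 and -0.34 with limma adjusted p of 0.0781 and 0.491. Of 12 tested genes whose proteins are substrates of human SPOP 3 fell (25%, against 19.7% of all genes tested) and 0 rose (0%, against 12.2%). Those were Daxx (-1.53), a histone chaperone, H2afy (-1.56), which encodes macroH2A1, and Trim24 (-2.09), a chromatin reader. Bmi1, of Polycomb complex 1, and Dek, a chromatin protein, were the highest in siControl and had changes of -0.17 and 0.37 with limma adjusted p of 0.845 and 0.645. The medians of these lists were -0.05 and -0.93. In the knockdown comparison 0 genes of these 4 lists were called by limma, and their medians were 0.05 for the cullin-3 ligase, 0.02 for the other BTB adaptors, -0.01 for the other MATH proteins and -0.04 for the SPOP substrates. Of 11 tested markers of the 2-cell stage 10 rose (90.9%, against 12.2% of all genes tested), and of 10 tested oocyte and zygote markers 6 fell (60%, against 19.7%), while Tcstv1 and Tcstv3 were listed at 0 in all libraries.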

How the data were processed

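RNA-seq of 5 pools of mouse embryos was used. The authors deposited FPKM per gene in 1 table. TopHat2 2.0.6, Bowtie 0.12.9, Cufflinks 2.2.1 and the build mm9 are listed in the submitters' processing notes. Not given in the sources used here are the library kit, whether counting used strand, and the handling of reads that match several copies. Read totals are not known, so no counting intervals are given. All sample columns were used (0 left out).

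FPKM were taken as log2(FPKM + 1) and fitted with limma 3.58.1 (R 4.3.3, eBayes with trend) over genes that reached 1 FPKM in 2 or more of the libraries fitted. The knockdown fit used the 4 2-cell libraries and the stage fit all 5, with group as the only term. Calls needed a Benjamini-Hochberg adjusted p under 0.05 over all genes tested. The scale understates changes of low genes. Alternatives were a pseudocount of 0.1, no filter, other scalings, a replicate block, other library sets and leaving out each library.

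The members and lists were chosen with earlier results of these data known. Named genes were the members, NF-Y subunits and MATH-BTB relatives, the 2 genes of highest siControl mean and those called in each list, and the 3 nearest genes per member. The neighbours on chromosome 3, the copies set side by side and the motifs TATATAA and TTTTCAG were added after values were seen. Windows come from RefSeq (GRCm38.p6) and were aligned in pairs with Biopython 1.88, as global alignments with free end gaps. Protein identities and distances to DNase I sites were planned but not run.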

Additional observations from a re-analysis of the deposited data

How the results depend on the processing

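In the knockdown comparison 0 genes were called lower and 0 higher. A pseudocount of 0.1 gave 1 lower, and quantile normalization gave 2 lower and 1 higher. A replicate block on the library number gave 9 lower and 2 higher, with members' SE of 0.14 to 0.21, adjusted p of 0.785 to 0.971 (limma) and 0 members called. The labels give no shared origin for a number. Deviations from the group means correlated at 0.744 between same-numbered libraries. Leaving out 1 library gave 5 to 25 genes lower and 1 to 6 higher. Then the members' log2 changes ran from -0.67 to 0.76 for Tdpoz1, -1.01 to 0.67 for Tdpoz2, -0.44 to 0.35 for Tdpoz3, -0.92 to 0.73 for Tdpoz4 and -1.37 to 1.13 for Tdpoz5. The other 40 of 50 member values kept their direction without a call. A lone library is assumed to vary like the other group.

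In the stage comparison 43 of 45 member values under alternatives kept direction and call. With no filter, Tdpoz2 (4.81) and Tdpoz5 (6.31) kept their size and lost the call, with 557 genes called higher. Setting libraries to the same median gave 1389 genes lower, and quantile normalization gave 1283. The cause was not tested. Without the 10 genes of highest mean FPKM the members held 0.0762% and 0.115% of the summed FPKM in Nfya-KD. In siControl they then held 0.0709% and 0.143%, and in 1-cell embryos 0.00015%, each above the main value. No spread was computed for these shares. Other limits on the distance to DNase I sites were not run. The 1-cell group has 1 library, put at 0.747 times the depth of siControl 1, and its read total is unknown.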
